A study of Mus musculus with 4 samples.

Results

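The genes described here encode 7 subunits of the GABA-A receptor, the chloride channel that GABA opens: Gabra2, Gabra3, Gabra4, Gabra5, Gabrb1, Gabrb2 and Gabrd. They were chosen by symbol, each matched to 1 row of a matrix of 53465 mouse genes, and all 7 were among the 17528 genes with enough counts to be tested. The tissue was the lateral habenula, an epithalamic nucleus that sends forebrain signals on to midbrain monoamine neurons. There were 2 libraries from socially isolated and 2 from group-housed C57BL/6 mice. The title of the series calls the isolation acute. Its length, the age and sex of the mice and the number of mice behind a library are not stated in the labels. The replicates may therefore be technical, and the p-values cover no more than the spread among these 4 libraries.

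GABA-A receptors are pentamers, most of them built from α and β subunits with a γ or a δ subunit. The α and β subunits together form the sites that bind GABA, and gephyrin helps to hold many receptors at synapses, where they carry brief inhibitory currents. Receptors with δ, which in the forebrain mostly pair it with α4, sit outside synapses and carry a lasting tonic current that neurosteroids enhance. Receptors with α5 are also found largely outside synapses. Thalamic relay neurons, which border the habenula, are known for strong α4 and δ expression and a large tonic current.

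Total counts ranged from 20897605 to 26428152 per library, and a gene with 3 counts stood at 0.113 to 0.146 CPM. CPM is the read count scaled to library size, here with TMM, a correction for library composition. All 11 lateral habenula markers were tested, and the most abundant of them, Gpr151, an orphan receptor of habenular neurons, stood at 426 and 426 CPM in isolated libraries and at 397 and 352 CPM in group-housed libraries. Pcdh10, a protocadherin and the next most abundant, stood at 289 and 244 CPM in isolated and 297 and 280 CPM in group-housed libraries. More than 1 library stood apart in marker genes of other cells. For isolated replicate 2 the ependymal marker sum was 179 CPM, beside 90.4 CPM in isolated replicate 1 and 86.2 and 81.5 CPM in group-housed libraries. Its thalamus marker list was also the lowest of the 4 libraries. For isolated replicate 1 the oligodendrocyte markers were lowest, with a median centred level (log2 CPM minus each gene's average) of -0.28, beside 0.03 in isolated replicate 2 and 0.13 and 0.11 in group-housed replicates 1 and 2. Choroid plexus markers split the group-housed pair, at -0.13 and 0.03 in isolated and -0.42 and 0.44 in group-housed replicates 1 and 2, so that group-housed replicate 2, the highest library for Gabrd and Gabra4, was also highest in them. The part of these cells in the differences below was not tested.

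The δ subunit transcript showed the largest difference of the 7, lying lower in isolated mice, and α4 followed it. The means of all 7 genes lay lower in isolated libraries, with differences from -0.364% for Gabra2 to -43.8% for Gabrd, but none of the 7 passed the test. The test was the edgeR quasi-likelihood method, with p-values adjusted by Benjamini-Hochberg across the 17528 genes and a threshold of 0.05. In it 0 genes passed as lower (0%) and 2 genes passed as higher (0.0114%), Chrnb3 and Slc5a7, both on the list of medial habenula markers. At an unadjusted p under 0.05 the count was 2 of the 7, Gabrd and Gabra4, as against 397 genes, or 2.26% of all tested, that were lower at that level. With DESeq2, 1 of the 7 passed as lower, where 0.0711% of genes with an adjusted p did so. With the exact test of edgeR, also 1 of 7 passed, against 0.0856% of all genes. In both it was Gabrd.

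Gabrd (ENSMUSG00000029054) encodes the δ subunit. On GRCm38 it occupies chromosome 4, 155384980 to 155398112, minus strand, with 8 merged exons of 2875 bases in total. Its raw counts were 308 and 246 in isolated replicates 1 and 2, against 332 and 546 in group-housed replicates 1 and 2. Scaled to library size these were 11.7 and 9.29 CPM in isolated libraries and 16.2 and 21.2 CPM in group-housed libraries. The groups did not overlap, and the spread within the group-housed pair was the wider. The exact Poisson 95% intervals, which cover counting error only, ran from 10.5 to 13.1 and 8.17 to 10.5 CPM in isolated libraries, and from 14.5 to 18.0 and 19.5 to 23.1 CPM in group-housed libraries. No isolated interval reached a group-housed one.

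The group means of Gabrd were 10.5 ± 1.73 CPM in isolated and 18.7 ± 3.58 CPM in group-housed libraries (SD, n = 2 each). The fitted log2 fold change was -0.84 (SE 0.16), a fold of 0.560, with an unadjusted 95% interval of -1.21 to -0.47. The edgeR quasi-likelihood adjusted p was 0.281, and Gabrd ranked 5 by p among the 8547 genes with a lower fitted level. The adjusted p was 0.0144 in DESeq2, 0.00258 in the edgeR exact test and 0.299 in limma-voom, and ran from 0.00258 to 0.9995 over 12 alternatives. The call thus differed between tests, and in the quasi-likelihood test it also changed when isolated replicate 1 was left out (edgeR adjusted p = 0.0151). The direction did not depend on any 1 library: leaving each out in turn gave log2 fold changes from -1.02 to -0.63.

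Gabra4 (ENSMUSG00000029211) encodes α4, the usual partner of δ in the thalamus and dentate gyrus. Its raw counts were 1425 and 957 in isolated replicates and 1151 and 1778 in group-housed replicates. This gave 54.3 and 36.1 CPM in isolated libraries, against 56.1 and 69.2 CPM in group-housed libraries. The groups did not overlap, but isolated replicate 1 lay only just under group-housed replicate 1, and their counting intervals (51.5 to 57.2 and 52.9 to 59.4 CPM) overlapped. Means were 45.2 ± 12.8 CPM in isolated and 62.6 ± 9.24 CPM in group-housed libraries (SD, n = 2 each). The log2 fold change was -0.47 (SE 0.17), with an unadjusted 95% interval of -0.86 to -0.08 and an edgeR quasi-likelihood adjusted p = 0.863. Without isolated replicate 2 it was -0.21, and without isolated replicate 1 it was -0.80.

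**Figure D1:**
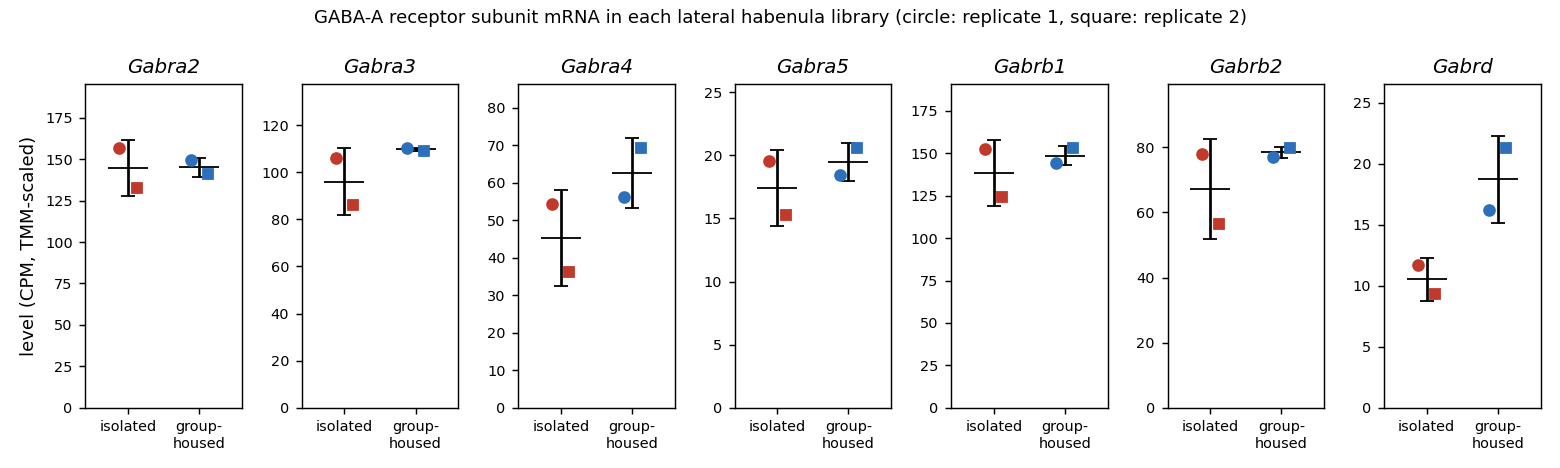
Level in CPM (y axis, 1 scale per gene, each starting at 0) of the 7 subunit genes in isolated (red, left) and group-housed (blue, right) libraries, with circles for replicate 1, squares for replicate 2, and black bars for the mean ± SD of 2 libraries. Gabrd separates the groups most, with 9.29 to 11.7 CPM in isolated and 16.2 to 21.2 CPM in group-housed libraries, while the isolated square lies lowest in every panel.

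Gabra4 belongs to a group of 4 subunit genes within 1.40 Mb of chromosome 5, in the order Gabrg1, Gabra2, Gabra4 and Gabrb1. Gabra4 runs on the minus strand from 71569749 to 71658308 and Gabrb1 on the plus strand from 71658113 to 72149037, so that they meet head to head and 46 exonic bases are shared. That overlap is 0.756% of the merged exons of Gabra4 and 0.332% of those of Gabrb1. The neighbours did not carry equal differences: the log2 fold change was -0.47 for Gabra4, -0.25 for Gabrg1, -0.10 for Gabrb1 and -0.0049 for Gabra2. The differences between these genes were not tested. The stretch just upstream of Gabra4 is shown because it precedes the gene of the δ partner and lies inside its head-to-head neighbour, past the exon of Gabrb1 that faces Gabra4. Its nearest base is 56 bases before the RefSeq start of Gabra4. It is chr5:71658364-71658558 of GRCm38.p6, on the minus strand, from the RefSeq promoter table, and holds no exon annotated in GENCODE M21.
Gabra4 upstream: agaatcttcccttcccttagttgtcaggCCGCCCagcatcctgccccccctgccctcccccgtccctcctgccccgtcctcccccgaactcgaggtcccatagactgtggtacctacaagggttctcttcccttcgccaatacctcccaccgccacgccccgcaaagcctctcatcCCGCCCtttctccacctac
The capitals mark 2 matches to the GC box GGGCGG, searched on both strands, a motif that 23.8% of the 32851 promoter windows cut to the same 195 bases also held. Matches to GCGTGGGCG or GCGGGGGCG, the motif of EGR factors, numbered 0 (1.83% of windows held one), as did matches to the cyclic AMP element TGACGTCA (0.770%) and to TATAAA (8.95%). The stretch stops 56 bases before the start, and the other windows were cut alike. A TATA box nearer to the start could therefore not be found, and its absence here says nothing about the promoter. In rat neurons EGR3 is known to activate Gabra4, and a search for exact matches in these 195 bases does not bear on that. The 195 bases had 63.6% G and C, against a median of 51.3% over all windows. The RefSeq promoter table matched 6 of the 7 genes, and the seventh is Gabrd.

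The α2 and α3 subunits are the main synaptic α subunits of this set, α2 in forebrain neurons and α3 in brainstem, thalamic reticular and monoamine neurons among others. Gabra2 (ENSMUSG00000000560, chromosome 5, 70957597 to 71095849, minus strand) measured 156 and 133 CPM in isolated libraries and 149 and 141 CPM in group-housed libraries. The isolated libraries lay on either side of the group-housed pair. Means were 145 ± 16.7 CPM in isolated and 145 ± 5.76 CPM in group-housed libraries (SD, n = 2 each). The log2 fold change of -0.0049 had a 95% interval of -0.20 to 0.19, and its sign turned when no TMM scaling was used (0.01).

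Gabra3 (ENSMUSG00000031343, chromosome X, 72432681 to 72656848, minus strand) measured 106 and 86.1 CPM in isolated libraries, against 110 and 109 CPM in group-housed libraries. Both isolated libraries lay below the group-housed pair, isolated replicate 1 by less than the spread within its own group. The log2 fold change was -0.19 (SE 0.09), with a 95% interval of -0.40 to 0.02 and an edgeR quasi-likelihood adjusted p = 0.979. Without isolated replicate 2 it was -0.05.

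Gabra5 (ENSMUSG00000055078, chromosome 7, 57407672 to 57510059, minus strand) encodes α5, best known from tonic inhibition in hippocampal pyramidal neurons. It measured 19.5 and 15.3 CPM in isolated libraries and 18.4 and 20.5 CPM in group-housed libraries. The groups overlapped. Means were 17.4 ± 3.03 CPM in isolated and 19.5 ± 1.497 CPM in group-housed libraries (SD, n = 2 each), and the log2 fold change was -0.17 (SE 0.13, 95% interval -0.46 to 0.13). It was 0.0019 without isolated replicate 2. An antisense gene, Gm9962, covers 148 bases, or 4.98%, of its merged exons.

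The β subunits are needed for assembly and for binding GABA, and occur in synaptic and extrasynaptic receptors alike. Gabrb1 (ENSMUSG00000029212) measured 152 and 124 CPM in isolated libraries and 145 and 153 CPM in group-housed libraries, with a log2 fold change of -0.10 (SE 0.09, 95% interval -0.32 to 0.11). Gabrb2 (ENSMUSG00000007653, chromosome 11, 42419757 to 42629028, plus strand), measured 78.0 and 56.3 CPM in isolated libraries and 77.2 and 79.6 CPM in group-housed libraries. Its log2 fold change was -0.22 (SE 0.13, 95% interval -0.52 to 0.07). In both β genes isolated replicate 1 lay within the group-housed pair and isolated replicate 2 alone lay below it. Without isolated replicate 2 the log2 fold changes were 0.034 for Gabrb1 and -0.0064 for Gabrb2.

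Isolated replicate 2 was the lowest of the 4 libraries for all 7 genes, which held for 27.4% of all tested genes. The isolated pair lay wholly below the group-housed pair for 3 of the 7, Gabrd, Gabra4 and Gabra3, and for 16.3% of all tested genes. The median log2 fold change of the 7 was -0.19, beside 0.0033 over all tested genes. Marker lists of glia lay lower as well. The median was -0.22 for oligodendrocytes (12 of 12 with lower means), -0.14 for microglia (10 of 10) and -0.12 for astrocytes (10 of 11). Over all 17528 tested genes 8547 had a lower mean. Median centred levels in isolated replicates 1 and 2 were -0.28 and 0.03 for oligodendrocytes, -0.06 and -0.10 for microglia, and -0.07 and -0.08 for astrocytes. In group-housed replicates 1 and 2 they were, in the same order, 0.13 and 0.11, 0.15 and -0.01, and 0.12 and 0.02. In edgeR, DESeq2 and the exact test 0 of these markers passed. At an unadjusted p under 0.05 in the quasi-likelihood test 4 oligodendrocyte, 2 microglia and 2 astrocyte markers were lower, against 2.26% of all tested genes. The part of glia in the difference of the 7 was not tested. Over the 7 the median was -0.0064 without isolated replicate 2, where 4 of the 7 fitted values were below 0. Without isolated replicate 1 the median of the 7 was -0.36, and 4 of them, Gabra3, Gabra4, Gabrb2 and Gabrd, then passed as lower in edgeR's quasi-likelihood fit, with adjusted p-values of 0.0416, 0.00971, 0.0144 and 0.0151. In that fit 0.387% of tested genes passed as lower, and the lone isolated library was assumed to vary as the group-housed pair did. For Gabrd the log2 fold change was -0.68 without isolated replicate 2 (edgeR adjusted p = 0.259).

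**Figure D2:**
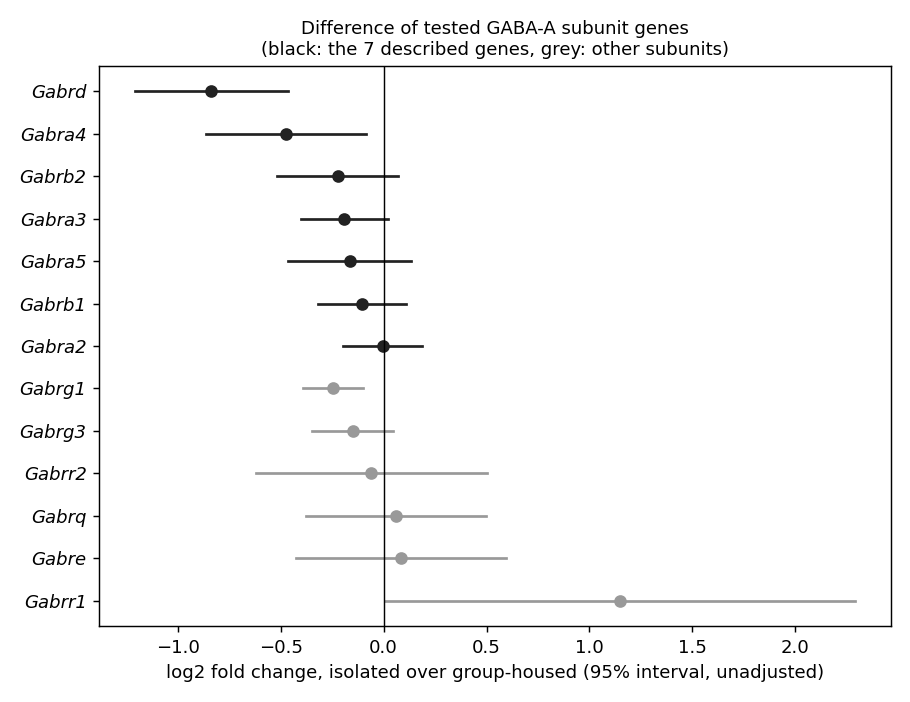
Log2 fold change, isolated over group-housed (x axis), of tested GABA-A subunit genes, with lines for the unadjusted 95% interval of edgeR's quasi-likelihood fit. Among the 7 described genes (black), the intervals of Gabrd (-1.21 to -0.47) and Gabra4 (-0.86 to -0.08) lie wholly below 0, and those of the other 5 include 0.

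Markers of the neighbouring thalamus also lay lower. Of 20 thalamus markers 17 had a lower and 3 a higher mean in isolated libraries, and the median log2 fold change was -0.33. For 10 of them the groups did not overlap, with the isolated pair the lower, against 16.3% of all tested genes. Their summed level was 2841 and 2499 CPM in isolated libraries and 2828 and 2896 CPM in group-housed libraries, and 0 of the 20 lacked counts. The most abundant of them, Cplx1, a regulator of vesicle fusion, and Zic1, a transcription factor gene, measured 596 ± 24.8 and 556 ± 3.02 CPM in isolated and 559 ± 47.6 and 509 ± 24.8 CPM in group-housed libraries (SD, n = 2 each). Both run against the list, being 2 of its 3 genes with a higher mean. In the quasi-likelihood test 11 of the list were lower at an unadjusted p under 0.05, against 2.26% of all tested genes. Of the list edgeR's quasi-likelihood test called 0, DESeq2 called 2 lower and the exact test 4 lower. Over all genes 0.0711% passed as lower in DESeq2 and 0.0856% in the exact test. After centring every gene on its own average log2 CPM, the median thalamus marker stood at 0.05 and -0.37 log2 units in isolated replicates 1 and 2, and at 0.10 and 0.22 in group-housed replicates 1 and 2. Gabrd stood at -0.24 and -0.58 in the isolated and at 0.22 and 0.61 in the group-housed replicates, and Gabra4 at 0.05 and -0.54 in the isolated and at 0.09 and 0.40 in the group-housed replicates. The part of thalamic tissue in the differences was not tested, and in bulk tissue fewer cells of a type and less RNA per cell cannot be told apart.

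By the median of the list, isolated replicate 2 was also lowest for lateral habenula and neuron markers, by smaller margins. Lateral habenula markers, 5 with a higher and 6 with a lower mean, gave a median log2 fold change of -0.11. They were split, with the isolated pair wholly above the group-housed pair for 4 of the 11 and wholly below it for 3. Over all 17528 tested genes it lay wholly above for 3052 and wholly below for 2850. At an unadjusted p under 0.05 in the quasi-likelihood test, 4 were higher and 2 lower, against 496 and 397 of all tested genes. DESeq2 and the exact test each called 1 of the list lower. The median centred level of lateral habenula markers was 0.06 and -0.18 in isolated and 0.09 and -0.05 in group-housed libraries. Neuron markers had a median log2 fold change of -0.04 over 10 genes, and a median centred level of 0.05 and -0.08 in isolated and 0.06 and -0.01 in group-housed libraries. Medial habenula markers stood the other way, at 0.20 and 0.23 in isolated and -0.13 and -0.25 in group-housed libraries, with a median log2 fold change of 0.40 over 12 genes. For 9 of these the groups did not overlap with the isolated pair the higher, and 2 passed as higher in the quasi-likelihood test, 7 in DESeq2 and 7 in the exact test. Among all 17528 tested genes the isolated pair was wholly the higher for 3052. Over all genes 2 passed as higher in the quasi-likelihood test, 42 in DESeq2 and 67 in the exact test.

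**Figure D3:**
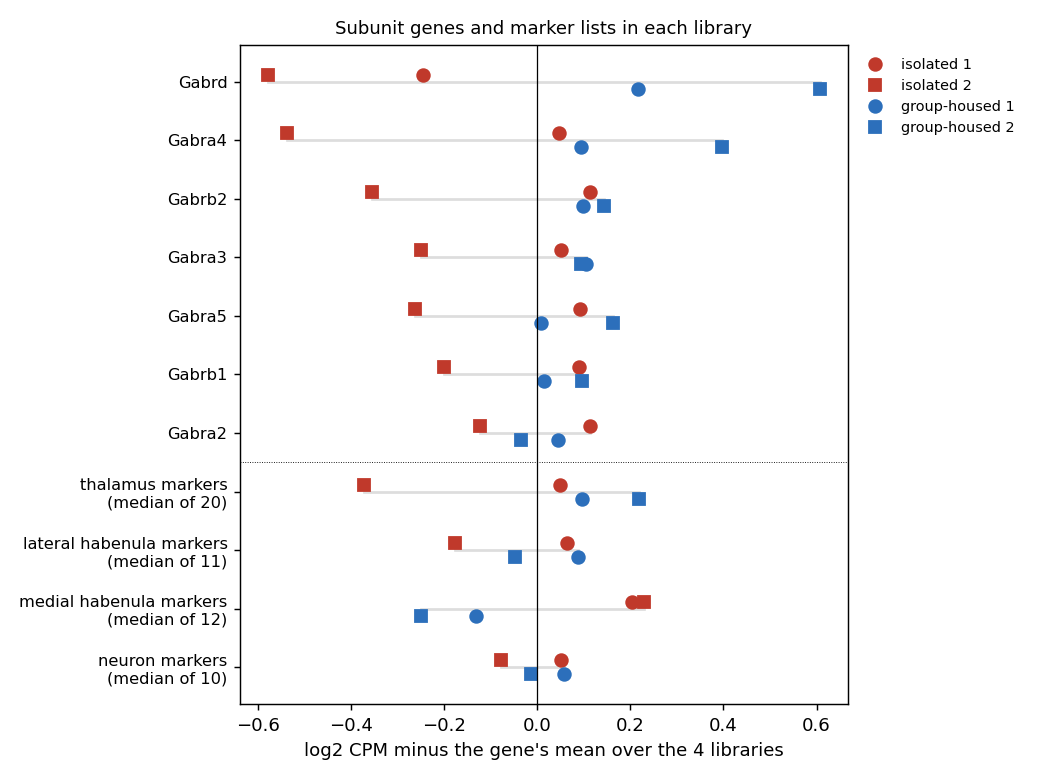
Level of each subunit gene, and the median level of 4 marker lists, in each library as log2 CPM minus the gene's mean over the 4 libraries (x axis), with red for isolated and blue for group-housed libraries, circles for replicate 1 and squares for replicate 2. Isolated replicate 2 lies lowest for all 7 genes and for the thalamus (-0.37), lateral habenula (-0.18) and neuron markers (-0.08). For the medial habenula markers it lies highest (0.23).

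The genes with profiles nearest to Gabra4 and Gabrd over the 4 libraries were sought among 12234 other genes of at least 5 CPM on average, by the root mean square distance of log2 CPM centred on each gene's mean. Only these 2 of the 7 ranged over 0.5 log2 units. Nearest to Gabra4 were Arhgap22, a GTPase-activating protein gene, Rasd1, a Ras-like gene induced by dexamethasone, and Ptpn3, a tyrosine phosphatase gene, at 0.0344, 0.0367 and 0.0403 log2 units. Nearest to Gabrd were Gm43398 at 0.127, Prkcd at 0.133 and D130058E05Rik at 0.136 log2 units. Prkcd, a protein kinase C gene of thalamic relay neurons, is on the thalamus marker list, and measured 68.6 and 44.3 CPM in isolated libraries against 84.7 and 127 CPM in group-housed libraries. Over only 4 libraries, close profiles are easily found among 12234 genes. The distances were not tested or set against a baseline.

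Levels of different genes can be set side by side only per length of transcript, here as CPM per kilobase of merged exons. On that scale the order from the highest was Gabra3, Gabra2, Gabrb2, Gabrb1, Gabra4, Gabra5 and Gabrd. Over the 4 libraries Gabra3 ran from 21.9 to 28.1, Gabra2 from 17.4 to 20.5 and Gabrd from 3.23 to 7.39 CPM per kilobase. The ranges of Gabra3 and Gabra2 overlapped with no neighbour in the order, while the other 4 neighbouring pairs overlapped. The mean of Gabra3 was 5.16 times that of Gabrd. In all 4 libraries the α4 and δ transcripts stood below those of α2 and α3 on this scale. The order depends on the length taken for each gene. By the longest transcript, Gabra4 held a larger share of the summed level of all subunit genes than Gabrb1, with 4.88 against 4.51% in isolated and 6.12 against 4.35% in group-housed libraries. Gabra3 then stood nearer to Gabra2, with 11.7 against 11.1% in isolated and 12.03 against 9.97% in group-housed libraries.

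As shares of the summed per-kilobase level of all 19 GABA-A subunit genes in the matrix, the 7 genes made up 48.9 and 46.6% in isolated libraries and 48.8 and 50.5% in group-housed libraries. Gabrd held 2.21 and 2.11% in isolated libraries, against 3.01 and 3.91% in group-housed libraries. Together with Gabra4 it held 7.04 and 5.98% in isolated and 7.94 and 9.92% in group-housed libraries. Gabra2 held 11.1 and 11.3% in isolated and 10.4 and 9.77% in group-housed libraries. Gabra3 held 14.6 and 14.3% in isolated and 15.0 and 14.7% in group-housed libraries. The share of Gabrd was lower and that of Gabra2 higher in both isolated libraries than in both group-housed ones. These shares are a description of the pool and were not tested. A share falls when other members of the pool rise, and rises when they fall. The mean level of Gabra2 itself was 145 CPM in isolated and 145 CPM in group-housed libraries.

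**Figure D4:**
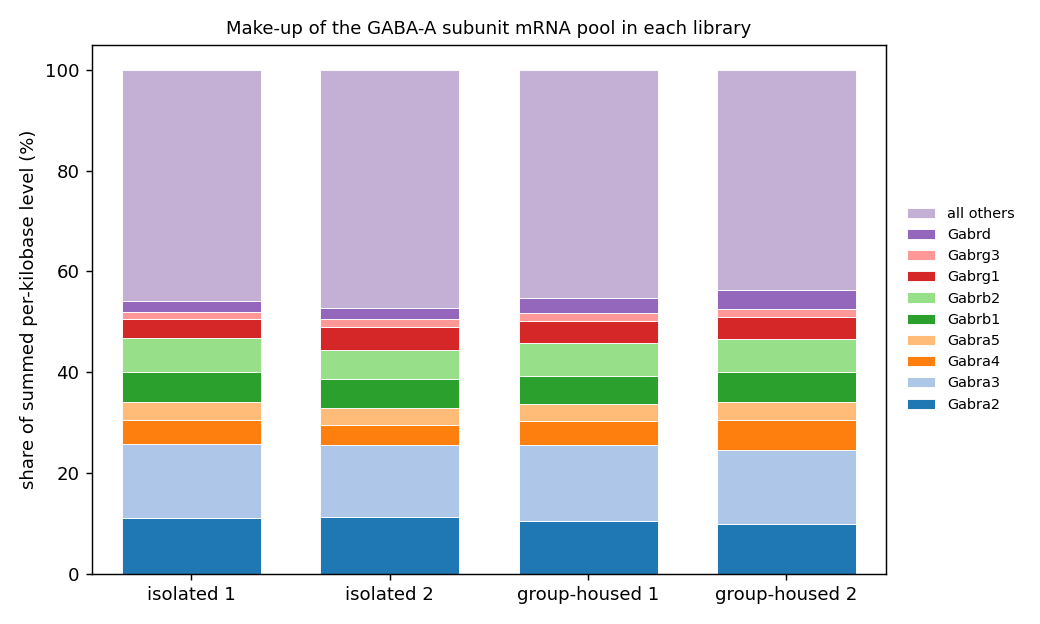
Share in percent (y axis) of the 7 described genes, Gabrg1, Gabrg3 and all other subunit genes together in the summed per-kilobase level of all 19 subunit genes, 1 bar per library, isolated libraries on the left. The 7 genes together hold 46.6 to 50.5% of the pool, with the Gabrd band at 2.21 and 2.11% in isolated and 3.01 and 3.91% in group-housed libraries.

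Of the 12 other subunit genes, 9 were tested and 0 passed in edgeR's quasi-likelihood test, with a median log2 fold change of -0.06. The same count was 0 with DESeq2 and with the exact test, and at an unadjusted p under 0.05 Gabrg1 lay lower and Gabrr1 higher. Gabrg1, the γ1 subunit gene, measured 54.0 and 55.1 CPM in isolated libraries, against 65.4 and 64.1 CPM in group-housed libraries. Its libraries agreed closely within each group, and the log2 fold change was -0.25 (SE 0.06, edgeR adjusted p = 0.570). Gabrr1, a ρ subunit gene best known from retina, had only 11 and 12 counts in isolated libraries and 3 and 6 counts in group-housed libraries (log2 fold change 1.15, edgeR adjusted p = 0.974).

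Other log2 fold changes, all with 95% intervals that include 0, were -0.15 for Gabrg3, 0.09 for the ε gene Gabre, 0.06 for the θ gene Gabrq and -0.06 for Gabrr2, of which Gabre and Gabrq turned below 0 without isolated replicate 1. Gabra6, Gabrp and Gabrr3 had between 1 and 3 counts in all 4 libraries together, and were not tested.

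The same quasi-likelihood test called 0 genes in each of 5 lists of genes around the receptor, and DESeq2 and the exact test also called 0. Among 14 genes of receptor clustering and auxiliary proteins the median log2 fold change was 0.02, with 10 higher and 4 lower means, and 0 genes were under an unadjusted p of 0.05. The smallest p of each direction belonged to Lhfpl4, an auxiliary protein that links synaptic receptors to neuroligin, at 191 ± 8.60 CPM in isolated and 177 ± 5.90 CPM in group-housed libraries (SD, n = 2 each; log2 fold change 0.11), and to Rdx, radixin, which anchors α5 receptors to actin (-0.11). Among 13 genes of receptor trafficking and turnover the median was -0.03, again with 0 under an unadjusted p of 0.05. There the smallest p among genes with a higher mean was that of Hap1, which returns internalised receptors to the membrane (0.07, and -0.037 without isolated replicate 1), and among those with a lower mean that of Trak2, a kinesin adaptor (-0.12).

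Of 8 genes for GABA synthesis, transport and breakdown, 4 had a higher and 4 a lower mean, and 0 were under an unadjusted p of 0.05. Gad1, which synthesises GABA, measured 23.8 and 12.7 CPM in isolated libraries and 13.0 and 14.4 CPM in group-housed libraries (log2 fold change 0.42). Isolated replicate 1 alone was high in Gad1, and without it the log2 fold change was -0.11.

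Among 9 genes of chloride balance, which sets the size of the GABA current, the median log2 fold change was -0.04, and 1 was under an unadjusted p of 0.05. That gene was Slc12a2, the chloride importer NKCC1, at 188 and 200 CPM in isolated libraries against 216 and 225 CPM in group-housed libraries (log2 fold change -0.19, SE 0.07, edgeR adjusted p = 0.840). Slc12a7, a potassium chloride cotransporter gene, had the smallest p among the higher genes, with a log2 fold change of 0.28 (-0.022 without isolated replicate 2). Among 6 tested genes of endogenous modulators the median was -0.06 and 0 were under an unadjusted p of 0.05. Dbi, the diazepam-binding inhibitor, measured 142 ± 11.8 CPM in isolated and 148 ± 4.92 CPM in group-housed libraries (SD, n = 2 each; -0.06), and Star, which delivers cholesterol for neurosteroid synthesis, gave a log2 fold change of 0.21.

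Shared sequence between these 7 genes and others was small. Of the 50-base words in the annotated transcripts of Gabrd, Gabra4, Gabrb1 and Gabrb2, 0 occurred in a transcript of another gene on either strand. The share was 3.59% for Gabra5, all of it from Gm9962, and 0.548% for Gabra2 and 0.205% for Gabra3. Gabrr1 shared 2.55% of its words with Gabrr2. The 46 exonic bases that Gabra4 and Gabrb1 share on opposite strands are fewer than the 50 of a word, so the search could not find them.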

How the data were processed

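Gene expression was measured by RNA sequencing of lateral habenula tissue. Per the labels' protocols, Trizol served for extraction and a stranded mRNA kit for the libraries. Tools listed in the submitters' processing notes, without their roles, are edgeR, HTSeq, TopHat2 2.1.1 and CASAVA, and the build is GRCm38. Neither the annotation release nor the strand setting of the counting is stated there, so reads of overlapping antisense genes may be included. The authors deposited raw read counts per Ensembl gene, and these counts served for every value. Deposited per-library files, which rescale the same counts by a constant, were not used.

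Of 53465 identifiers, 53360 matched a symbol in GENCODE M21 (GRCm38). Genes were filtered with filterByExpr, scaled by TMM and compared with glmQLFit and glmQLFTest (edgeR 4.0.16, R 4.3.3), 2-sided, with no covariate. The biological coefficient of variation was 7.20% and the residual degrees of freedom 2. Standard errors are the log2 fold change over the square root of F. Alternatives used DESeq2 1.42.0, limma 3.58.1, other filters and scalings, and omission of each library. The fits were also run on simulated counts with set fold changes, and the outcome is not reported here. The simulated libraries did not differ in tissue make-up, so the simulation does not bear on such differences.

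Named beside the 7 genes were other subunits with at least 10 counts in total, in each pathway list the gene of smallest p per direction, the 2 most abundant lateral habenula and thalamus markers (other marker lists are given as summaries only), and the 3 nearest profiles. Some genes that this rule names are not reported here. The 7 genes, the lists and the tests were chosen with earlier results of these data known, so they are described by counts and medians without a test of a list.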

Additional observations from a re-analysis of the deposited data

How the results depend on the processing

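The 7 subunit genes gave 84 fitted log2 fold changes under 12 alternatives each, of which 72 kept both direction and call. Gabrd remained below 0 throughout, from -1.02 to -0.63, and Gabra4 from -0.80 to -0.21. Without 1 library in turn, the count of the 7 that passed ran from 0 to 4, that of other subunits from 0 to 1, and that of all genes from 0 to 151 as higher and from 0 to 70 as lower. DESeq2 called 42 genes higher and 10 lower, the exact test 67 and 15, and no filter on low counts gave 15 higher, and of the 7 genes DESeq2 and the exact test each called 1, Gabrd. With no filter Gabrd gave an edgeR adjusted p = 0.0890. The fit with the replicate number as a replicate block called 52 genes higher and 12 lower, and 1 of the 7, Gabrd (log2 fold change -0.83, edgeR adjusted p = 0.0424). The labels do not say that the numbers pair libraries, and deviations of same-numbered libraries from their group means correlated at 0.141 across genes.

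Some directions turned. Gabra2 stood at 0.014 without TMM scaling. Over the omissions of 1 library, log2 fold changes ran from -0.13 to 0.11 for Gabra2, -0.36 to 0.0019 for Gabra5 and -0.26 to 0.034 for Gabrb1. They ran from -0.15 to 0.28 for Gabre, -0.26 to 0.32 for Gabrq, -0.037 to 0.17 for Hap1, -0.11 to 0.80 for Gad1, -0.022 to 0.52 for Slc12a7, -0.14 to 0.025 for Dbi and -0.24 to 0.0063 for Pcdh10. The cause of these turns was not tested. With the longest transcript in place of merged exons as gene length, the mean share of Gabrd was 1.74% in isolated and 2.78% in group-housed libraries. At 246 to 546 counts per library Gabrd was above the counting floor of 3, and how far depth and how far the spread between 2 libraries limit its error was not separated.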
